A study of Mus musculus with 18 samples.

Results

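CD4 single-positive (CD4 SP) thymocytes from mice with a WNT secretion defect in the thymic epithelium were compared with CD4 SP thymocytes from wild-type mice, over 6 of the 18 Illumina BeadChip arrays of the study. CD4 SP cKO held 3 arrays from mice in which FoxN1-Cre drove the deletion of exon 3 of Gpr177, the gene now named Wls. CD4 SP wt held 3 arrays from C57Bl/6N mice. All mice were 4 to 6 weeks old, and the labels name no treatment other than the deletion. The other 12 arrays held double-positive (DP) and CD8 single-positive (CD8 SP) thymocytes of both genotypes, 3 arrays in each group. The arrays were chosen by their labels alone, and the label number from 1 to 3 paired a cKO array with the wt array on the same BeadChip. Foxn1 is a gene of thymic epithelial cells, so the thymocytes on the arrays were not the cells in which the deletion was driven. The labels do not say whether the wt mice carried FoxN1-Cre, or whether the 3 arrays of a group came from 3 animals, so the spread between arrays may be technical in part.

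WLS is a membrane protein that carries lipid-modified WNT ligands from the Golgi to the cell surface, and cells that lack it secrete little WNT. In the thymus the epithelium supplies WNT ligands, Notch ligands, chemokines and self peptides to developing T cells, which pass through the DP stage before they choose the CD4 or the CD8 lineage. CD4 SP thymocytes are the last stage of that lineage before the cells leave the thymus, and the population includes newly selected cells, mature cells about to leave and developing regulatory T cells.

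The labelled population was checked against its markers first, on log2 normalized bead intensities. Cd3e, a subunit of the T cell receptor complex, averaged 10.57 ± 0.15 in CD4 SP cKO and 10.50 ± 0.14 in CD4 SP wt (SD, n = 3 each). It was as bright in DP, at 10.60 in cKO and 10.53 in wt. Cd4 averaged 7.99 ± 0.22 in CD4 SP cKO and 7.69 ± 0.38 in CD4 SP wt with the brighter of its 2 probes over all arrays. That probe averaged 8.35 in DP cKO and 8.46 in DP wt, and 6.82 in CD8 SP cKO and 6.71 in CD8 SP wt. The second Cd4 probe was detected on no CD8 SP array. Zbtb7b, a CD4 lineage factor, did not mark the population, at 6.44 in cKO and 6.72 in wt, beside 6.39 and 6.27 in CD8 SP and 6.55 and 6.16 in DP. Cd40lg, the CD40 ligand of helper T cells, was detected on all 6 CD4 SP arrays and on no DP or CD8 SP array. Ccr7, the chemokine receptor of mature thymocytes, averaged 9.65 ± 0.09 in CD4 SP cKO and 9.66 ± 0.03 in CD4 SP wt. Nkg7, a cytotoxic granule gene detected on all 6 CD8 SP arrays, and Rag2, a recombinase gene detected on all 6 DP arrays, were detected on no CD4 SP array. Other DP genes were present, since Rag1, the partner of Rag2, was detected on all 6 CD4 SP arrays at 7.18 in cKO and 7.24 in wt, against 11.70 in DP cKO and 11.88 in DP wt. Dntt, the terminal transferase, was detected on 1 cKO array and 2 wt arrays of CD4 SP. Ptcra, the pre-T cell receptor alpha chain, was detected on all 6, at 6.63 in cKO and 6.71 in wt. Its probe did not mark DP, with 7.24 in cKO and 6.88 in wt there, beside 6.94 and 7.29 in CD8 SP. Cd8a is not informative, because its tested probe was not detected on any CD8 SP array, and the 3 probes of Cd8b1 disagreed about the CD4 SP arrays. Gata3, which is used in the CD4 lineage choice, was detected on 1 of 3 cKO arrays and on 0 of 3 wt arrays and was not tested.

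The 3 BeadChips did not give the same picture of the 6 arrays. The median bead intensity before normalization was 228 in cKO and 164 in wt on BeadChip 1, 246 in cKO and 168 in wt on BeadChip 2, and 186 in both on BeadChip 3. On the first principal component of the 18 arrays, on which the DP arrays scored lowest, the cKO array lay above its wt partner on BeadChips 1 and 2, with 35.7 against -1.49 and 43.3 against 8.97. On BeadChip 3 it lay below, with 12.3 in cKO and 23.3 in wt. Across 12975 genes, the cKO minus wt differences of BeadChips 1 and 2 correlated at 0.289, while those of BeadChip 3 correlated with them at -0.0992 and -0.0716. These correlations describe the genes, which are not independent replicates. A difference over the 3 BeadChips is therefore given below together with its value on each. The part of intensity in the gene results was not tested beyond a fit that held the median intensity as a covariate.

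**Figure D1:**
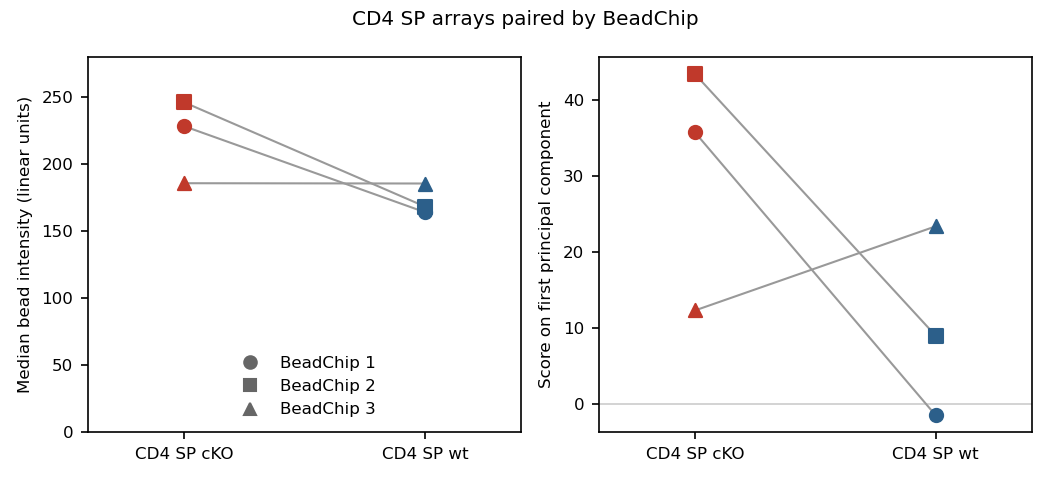
Median bead intensity before normalization (left) and score on the first principal component (right) of the 3 CD4 SP cKO arrays (red) and 3 CD4 SP wt arrays (blue), with lines joining arrays on one BeadChip. On BeadChips 1 and 2 the cKO array was brighter and scored higher, while on BeadChip 3 the median intensities were 186 in both and the score was lower in cKO.

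Wls itself, the gene deleted in the epithelium, was also measured in the thymocytes. Its log2 intensities were 6.59, 6.96 and 6.19 in CD4 SP cKO, against 6.48, 6.29 and 6.62 in CD4 SP wt. The groups overlapped, and the difference was 0.12 ± 0.29 (SE, limma adjusted p = 0.950). Both other tested probes of Wls lay lower in cKO, by a log2 difference of -0.07 and -0.29. The files do not say which exon a probe lies in, so none of the 3 probes checks the deletion.

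No gene passed the test between CD4 SP cKO and CD4 SP wt. Of 26676 probes tested, 0 had a limma adjusted p under 0.05 (0.0%), the lowest being 0.133, and 2257 had an unadjusted p under 0.05 (8.46%). These were divided into 1135 probes higher in cKO (4.25%) and 1122 lower in cKO (4.21%). Counted by gene, 4.08% stood at that level with a higher mean in cKO and 3.86% with a lower one. In simulated data with the spread of each probe, the same fit found 10.6% of changes of 1 log2 unit, 70.1% of changes of 2 and 97% of changes of 3. Changes of 1 log2 unit would thus mostly be missed. The fit also called 10 unchanged probes, and the simulated noise was independent between probes and held no BeadChip effect. Without wt array 3, 1 probe passed, a probe of Rgs1, a brake on G protein signals that is named for this result, with 4.38, 4.39 and 4.38 in cKO and 6.67, 6.33 and 5.30 in wt, and the other Rgs1 probe did not separate the groups (limma adjusted p = 0.960). Each gene below is named with its values and missed the threshold, and none is said to have changed. Where several probes of a gene were tested, the brightest on average stands for it. The 12 genes in each direction with the smallest p, 3 cKO values on one side of the 3 wt values and 1 sign on all 3 BeadChips were chosen from this comparison, and their values describe it. Of the 12975 genes, 808 had all 3 cKO values above the 3 wt values (6.23%) and 702 had all 3 below (5.41%).

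The smallest p of all genes belonged to Itgae, which encodes integrin alpha E (CD103), the partner of integrin beta 7 in the receptor for E-cadherin on epithelium. Its log2 intensity was 5.27, 4.89 and 4.93 in CD4 SP cKO, against 6.43, 6.91 and 6.91 in CD4 SP wt. All cKO values lay below all wt values, and no cKO array detected the probe while every wt array did. With undetected values raised to the lowest detected value of each array (floored), it was 3.27-fold lower in cKO. The floored fold is no strict bound, since cKO array 1 did not detect the probe at 5.27, above its lowest detected value of 4.90. The fitted difference was -1.72 ± 0.26 (limma adjusted p = 0.133, unadjusted p = 7.74e-06). It was -1.16, -2.03 and -1.99 on BeadChips 1, 2 and 3. With the median intensity of each array in the fit it was -1.77, and on log2 intensities without background correction -0.46. The 5 other Itgae probes gave differences of -0.78, -0.66, -0.55, 0.03 and 0.10, and the mean over all 6 probes was -0.60. Itgb7, the beta 7 partner, differed by -0.06, and Cdh1, E-cadherin itself, by -0.98 (limma adjusted p = 0.525) with -0.77, -2.14 and -0.02 on the 3 BeadChips and -0.18 for its second probe.

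Among the other genes lower in CD4 SP cKO, Plk1, a kinase that drives entry into and passage through mitosis, was the only one of the 12 detected on all 6 arrays. Plk1 measured 7.37, 6.67 and 6.45 in CD4 SP cKO and 8.26, 7.95 and 7.83 in CD4 SP wt. The highest cKO value lay below the lowest wt value, with a difference of -1.18 ± 0.24 (limma adjusted p = 0.221). With limma's trend and robust options for the variance, Plk1 passed (adjusted p = 0.00829). Gcc2, a golgin of the trans-Golgi network, had the most negative difference of the 12, with 5.15, 4.41 and 4.69 in cKO and 7.22, 6.76 and 6.14 in wt. Its second probe lay lower as well, by a difference of -0.77. Bcl7a, a subunit of SWI/SNF chromatin remodelling complexes, measured 4.69, 4.46 and 4.56 in cKO and 6.57, 6.12 and 6.56 in wt. No cKO array detected it, and it was 2.89-fold lower in cKO with undetected values floored as above (limma adjusted p = 0.221). Ubxn11, a UBX-domain protein, was 2.82-fold lower in cKO on the same terms (limma adjusted p = 0.133). Atp2b2, a plasma membrane calcium pump, measured 5.55, 4.56 and 5.14 in cKO and 7.02, 6.44 and 6.41 in wt. Ttll5, a tubulin polyglutamylase, differed by -1.59, and its other 3 tested probes lay between -0.18 and 0.35. The rest of the 12 were Tnfaip1, an adaptor of CUL3 ubiquitin ligases (-1.22), Camsap2, which binds microtubule minus ends (-1.35), Calcrl, the receptor for calcitonin gene-related peptide and adrenomedullin (-1.24), Tent5c, a non-canonical poly(A) polymerase (-1.19), and Crybg1 (-1.05). For 6 of the 12, the probe standing for the gene was detected on no cKO array, so that its level in cKO was not measured above background.

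Among the 12 genes higher in CD4 SP cKO, most were detected in cKO only. Unc80, a subunit of the sodium leak channel NALCN best known from neurons, measured 5.74, 6.20 and 6.46 in CD4 SP cKO, against 4.69, 4.52 and 4.60 in CD4 SP wt. All cKO arrays and no wt array detected it, and it was 2.36-fold higher in cKO with undetected values floored (limma adjusted p = 0.151). The 2 other tested Unc80 probes differed by -0.13 and 0.01, and the mean over its probes was 0.47. Ms4a4d, a member of the four-transmembrane MS4A family, measured 6.44, 6.73 and 6.00 in cKO and 4.49, 4.76 and 4.21 in wt. With undetected values floored, Ms4a4d was 2.83-fold higher in cKO (limma adjusted p = 0.221). Podn, the matrix proteoglycan podocan, was 2.56-fold higher in cKO on the same terms. St3gal5 encodes the sialyltransferase that makes the ganglioside GM3, and measured 6.25, 6.63 and 6.16 in cKO and 4.80, 5.24 and 5.27 in wt. Its groups lay apart by 1.24 ± 0.25 (limma adjusted p = 0.221), and 1 wt array detected it. Nav1, a neuron navigator, was tight within both groups, with 5.91, 5.81 and 5.97 in cKO and 4.50, 4.44 and 4.54 in wt, but its second probe differed by 0.04. Smim38, a small membrane protein, was the only one of the 12 detected on all 6 arrays, with 7.14, 7.89 and 7.22 in cKO and 6.04, 5.94 and 6.70 in wt. The remaining genes were Grik1, a kainate receptor subunit (1.08), Ankrd36 (1.14), the bitter taste receptor Tas2r120 (1.25), Zfyve19, a regulator of the final cut of cell division (1.13), the prolactin family gene Prl8a1 (1.02) and Nol4l (1.21). In all, the probe standing for the gene was detected on no wt array for 7 of the 12.

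**Figure D2:**
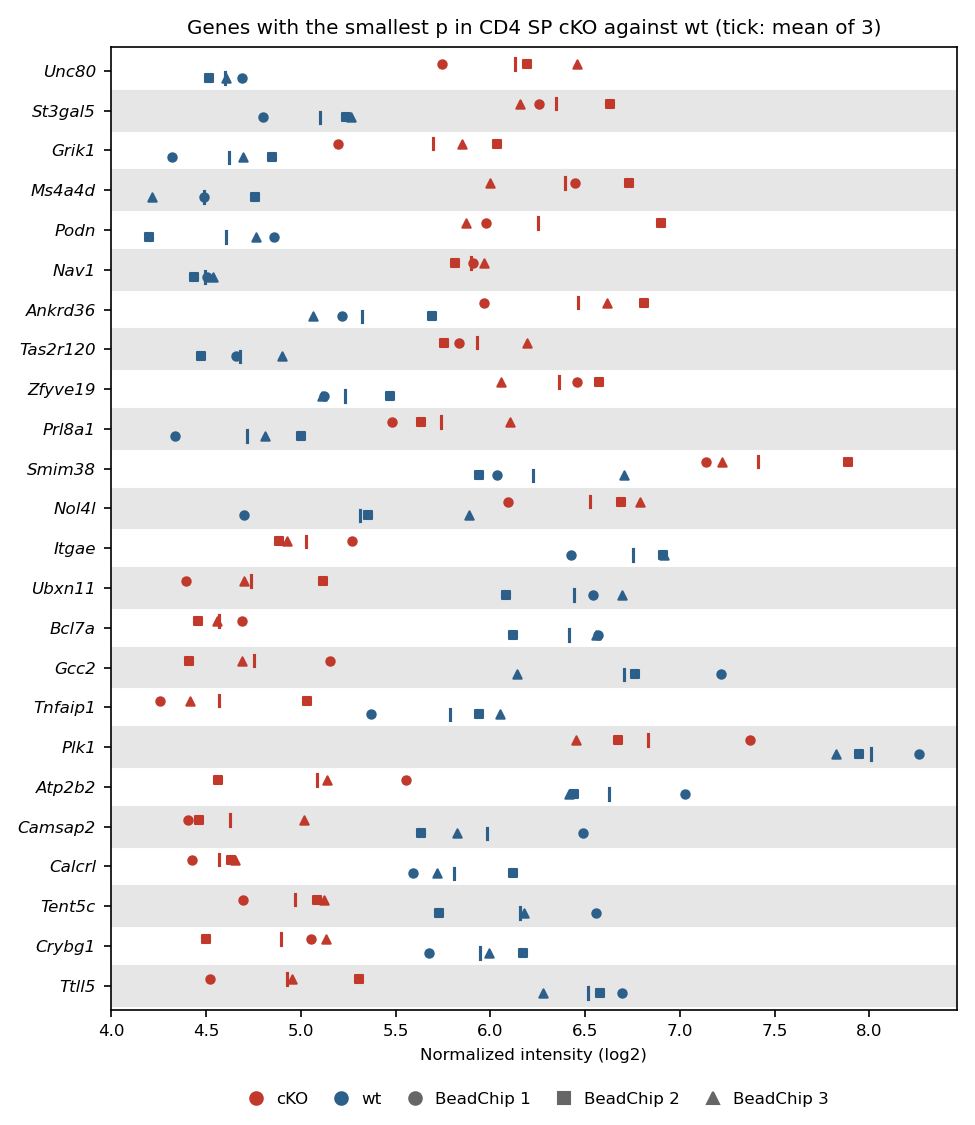
Normalized log2 intensity (x axis) of the 12 genes higher and the 12 genes lower in CD4 SP cKO with the smallest p, 1 gene per row, with cKO arrays in red above wt arrays in blue, a mark shape for each BeadChip and a tick at each mean of 3. The groups do not overlap in any row, since the genes were chosen so, and most of the dimmer groups lie near the floor of the scale, where arrays did not detect the probe.

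Brighter genes were examined separately, because many of the smallest p came from probes that 1 genotype did not detect. Of 7282 genes detected on all 6 arrays, 3728 were higher and 3551 lower in cKO. At an unadjusted limma p under 0.05 stood 182 of these genes higher and 207 lower in cKO. Both were smaller shares than over all 12975 genes, of which 4.08% were higher and 3.86% lower at that level. The lowest limma adjusted p was 0.221, that of Plk1. The genes that follow were picked after their values were seen, from genes without overlap between groups and with the same sign on every BeadChip. Ehmt1, a histone H3 lysine methyltransferase, measured 6.30, 5.53 and 5.31 in CD4 SP cKO and 7.83, 7.58 and 6.88 in CD4 SP wt, a difference of -1.72 ± 0.39 (limma adjusted p = 0.272). Vdac2, a channel of the outer mitochondrial membrane, measured 6.55, 6.86 and 7.11 in cKO and 7.61, 7.57 and 7.87 in wt. Mthfd2, a mitochondrial enzyme of folate metabolism, measured 7.10, 6.41 and 7.20 in cKO and 8.32, 8.41 and 7.76 in wt. Sla2, an adaptor that dampens T cell receptor signals, measured 5.51, 5.25 and 5.77 in cKO and 6.25, 7.25 and 7.05 in wt. In the other direction, Gpr15, a homing receptor of T cells for the colon, measured 6.99, 7.23 and 6.47 in cKO and 5.67, 5.94 and 5.89 in wt. Slc35b2, which carries the sulfate donor PAPS into the Golgi, measured 7.61, 7.92 and 8.09 in cKO and 6.92, 7.17 and 5.62 in wt. The lack of overlap in these 6 genes was a condition of their choice and is no result. All 6 missed the threshold (limma adjusted p between 0.272 and 0.425).

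Genes of regulatory T cells, a lineage that matures within CD4 SP thymocytes, had one of the more negative medians of the gene groups described, beside the cytotoxic and sterol groups. Of 16 genes listed, 11 were tested, and 9 of these had a lower mean in cKO and 2 a higher one, with 0 passing the test. Their median difference was -0.50, beside 0.03 over all genes tested, of which 47.1% had a lower mean in cKO. The median was -0.68, -1.18 and -0.14 on BeadChips 1, 2 and 3, and 3 of the 11 genes had all cKO values below all wt values, against 5.41% of all genes. Single arrays moved the median, which was -0.22 without cKO array 2, -0.33 without wt array 1 and -0.82 without wt array 3. Foxp3, the factor that defines the lineage, did not share this, with 8.02 ± 0.32 in cKO and 7.88 ± 0.20 in wt (SD, n = 3 each). Tnfrsf18, the costimulatory receptor GITR, measured 5.43, 6.43 and 7.25 in CD4 SP cKO and 7.41, 7.61 and 7.39 in CD4 SP wt. The cKO value was far below its partner on BeadChip 1 and close to it on BeadChip 3, and the second probe gave -0.43. Tnfrsf1b, the TNF receptor TNFR2, differed by -1.10 (limma adjusted p = 0.476) with its other tested probe at 0.21, and Ikzf2, the factor Helios, by -0.99 (limma adjusted p = 0.622). Gpr83, a G protein-coupled receptor of these cells, was the other member with a higher mean, by 0.46. The summed linear level of the 11 genes was 1107, 1027 and 1249 in cKO and 1427, 1403 and 1380 in wt, without overlap. Itgae belongs to this group as well and was counted in it. In sorted bulk cells, fewer cells of a type and less RNA per cell cannot be told apart. The median of the group was -0.20 with median intensity as a covariate and -0.15 on log2 intensities without background correction.

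Among genes of the CD8 lineage and of cytotoxic cells, 7 of 10 tested had a lower mean in cKO, with 0 passing the test. The median was -0.44, with -0.45, -0.93 and 0.00 on the 3 BeadChips, and it was -0.25 with median intensity as a covariate, -0.18 without wt array 2 and -0.66 without wt array 3. It was not particular to CD4 SP, since in CD8 SP 8 of the 10 were lower in cKO, with a median of -0.43. In DP 3 of the 10 were lower, with a median of 0.02. Cd8b1 averaged 8.37 in cKO and 7.87 in wt with its brightest probe, Prf1, perforin, averaged 7.78 in cKO and 8.22 in wt, and both were detected on all 6 arrays. After Itgae, the members with the smallest p were Ctsw, a cathepsin of cytotoxic lymphocytes, and Fasl, the ligand of the death receptor Fas (-0.97). Ctsw was detected on 0 cKO arrays and 2 wt arrays and was 1.79-fold lower in cKO with undetected values floored. Its groups overlapped, with -2.06, -1.75 and 0.20 on the BeadChips. Fasl was detected on 1 cKO array and 3 wt arrays, with -0.92, -0.96 and -1.03 on the BeadChips. Natural killer T and innate-like T cell genes had a median of -0.09 over 12 genes, with 0.15, 0.28 and -0.63 on the BeadChips and 0.01 without wt array 3. Within this group Il18r1, a chain of the interleukin 18 receptor, differed by -1.69 (limma adjusted p = 0.423) with other probes at -1.0 and -0.00, and Cxcr6, a chemokine receptor of these cells, was detected on no cKO array and on all 3 wt arrays. The 4 gamma delta T cell genes tested, Sox13, Blk, Cd163l1 and Etv5, all had higher means in cKO (median 0.41), with a BeadChip 3 median of -0.03 and 0 passing the test. Only 1 of the 4 was detected on all 6 arrays. Trgv4 and Trgv6, receptor genes of these cells, were detected on no CD4 SP array. The median of the 4 was 0.37 in DP and -0.19 in CD8 SP.

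Genes of the CD4 lineage and of helper T cells had a median near 0. Of 14 tested, 9 were lower and 5 higher in cKO, with a median of -0.04 and 0 passing the test. Zbtb7b, which encodes the CD4 lineage factor ThPOK, averaged 6.44 ± 0.84 in cKO and 6.72 ± 0.37 in wt. Satb1, a chromatin organizer of thymocytes, averaged 11.92 in cKO and 11.77 in wt. Lef1, a nuclear partner of beta-catenin, averaged 10.63 in cKO and 10.40 in wt. The 2 members with an unadjusted p under 0.05 were Patz1, a zinc finger factor, at -1.59, and Myb, at -0.90. The probe standing for Patz1 was detected on no cKO array, while another Patz1 probe was detected on 2. The other probes of Patz1 gave -0.00 and 0.09, and those of Myb gave -0.49, 0.04 and 0.32, of which 1 had the sign of the named probe.

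Genes that respond to T cell receptor signals during selection had lower means in cKO for 12 of 19 members, with a median of -0.10 and 0 passing the test. Egr1 averaged 10.64 in cKO and 10.72 in wt, Egr2 averaged 9.73 in cKO and 9.84 in wt, and Cd69, an early activation marker, averaged 8.08 in cKO and 8.25 in wt. The members with the smallest p were Irf4 (-0.66), Cd83, which was detected on 0 cKO arrays and 1 wt array, and Egr3 (-0.74, second probe -0.01), all short of the threshold. The receptor complex and its proximal kinases and adaptors were split evenly, with 10 genes higher and 10 lower in cKO and a median of 0.00. Cd3d, Cd3g and Cd247 differed by 0.04, -0.16 and 0.14. Plcg1, the phospholipase that follows the receptor, was the member with the smallest p, at 0.71, and was detected on 2 cKO arrays and on 0 wt arrays.

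Genes of SP maturation and exit from the thymus had lower means in cKO for 19 of 26 members, beside 47.1% of all genes and 52.3% of genes with a mean of at least 7, with a median of -0.15 and 0 passing the test. The medians on the BeadChips were -0.05, -0.18 and -0.04, and the median was -0.06 without cKO array 2. All cKO values lay below all wt values for 5 members and above them for 0, beside 5.41% and 6.23% of all genes. Klf2, the factor that switches on the exit receptor S1pr1, had the smallest p. Klf2 measured 5.30, 5.05 and 5.12 in CD4 SP cKO and 6.40, 6.15 and 5.58 in CD4 SP wt. The groups did not overlap, and the difference was -0.89 with -1.10, -1.10 and -0.46 on the BeadChips (limma adjusted p = 0.446). Gimap4 and Gimap5, small GTPases of lymphocyte survival, differed by -0.72 and -0.76. Il7r, the interleukin 7 receptor, averaged 9.52 in cKO and 9.66 in wt with its brightest probe, and its other 4 probes lay between -0.75 and -0.09. B2m averaged 11.16 in cKO and 11.31 in wt, and Cd52 averaged 11.07 in cKO and 11.10 in wt. Genes of immature SP cells had a median of -0.03 over 14 members, with Sox4 and Cd81 both at -0.02. Chemokine receptors had a median of -0.04 over 11 members, and cytokine receptors and JAK-STAT genes a median of -0.07 over 24, where Ifngr1, a chain of the interferon gamma receptor, differed by -0.66 with -0.80, -0.57 and -0.62 on the BeadChips.

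The 200 genes most higher and the 200 most lower in wt CD8 SP than in wt DP were chosen on arrays that are not part of the CD4 SP comparison, to follow the step out of the DP stage. They were taken from the probes past the threshold between those wt groups, 8.87% of those tested. The contrast covers that step only in part, since wt CD8 SP still held DP genes. Rag1 averaged 9.85 and Dntt 8.60 there, beside 11.88 and 9.73 in wt DP and 7.24 and 5.62 in wt CD4 SP. Over all genes tested, 47.1% had a lower mean in CD4 SP cKO than in CD4 SP wt, and 52.3% of genes with a mean of at least 7. Of the genes higher in CD8 SP, 136 of 200 had a lower mean in CD4 SP cKO (68.0%), with a median of -0.14. Of the genes lower in CD8 SP, 146 of 200 had a lower mean in CD4 SP cKO, with a median of -0.23, so both lists lay to the same side. For the second list the medians were -0.42, -0.48 and 0.05 on BeadChips 1, 2 and 3, and 152, 146 and 89 of the 200 genes were lower in cKO there. With median intensity as a covariate the median of this list was -0.03, and it was -0.15 without cKO array 2 and -0.14 without wt array 2. The first list had medians of -0.11, -0.21 and -0.03 on the BeadChips, -0.12 with that covariate and -0.08 without cKO array 2. In DP the second list had 154 of 200 genes lower in cKO (median -0.28) and the first had 83 (median 0.11). In CD8 SP the second had 95 lower (median 0.03) and the first had 150 (median -0.16). The wt arrays of DP and CD8 SP chose the genes, so the values in those populations are not independent of the choice. At an unadjusted limma p under 0.05, the first list had 8 of 200 genes higher and 10 lower in CD4 SP cKO. The second had 1 higher and 23 lower. Over all genes, 4.08% stood there as higher and 3.86% as lower, so the first list was near the shares of all genes. Examples from the first list other than Itgae are Igfbp4, an insulin-like growth factor binding protein (-0.66), and Ccnd2, cyclin D2 (-0.27). Examples from the second are Fas, the death receptor, and Rb1cc1, a subunit of the autophagy kinase complex (-0.82). The probe standing for Fas was 1.74-fold lower in cKO with undetected values floored. A different Fas probe was detected on all 3 cKO arrays and gave -0.25. Plxnd1, a semaphorin receptor of DP thymocytes and the gene of the second list with the largest difference between wt CD8 SP and wt DP, lay the other way with 0.62. None of these genes passed the test in CD4 SP.

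**Figure D3:**
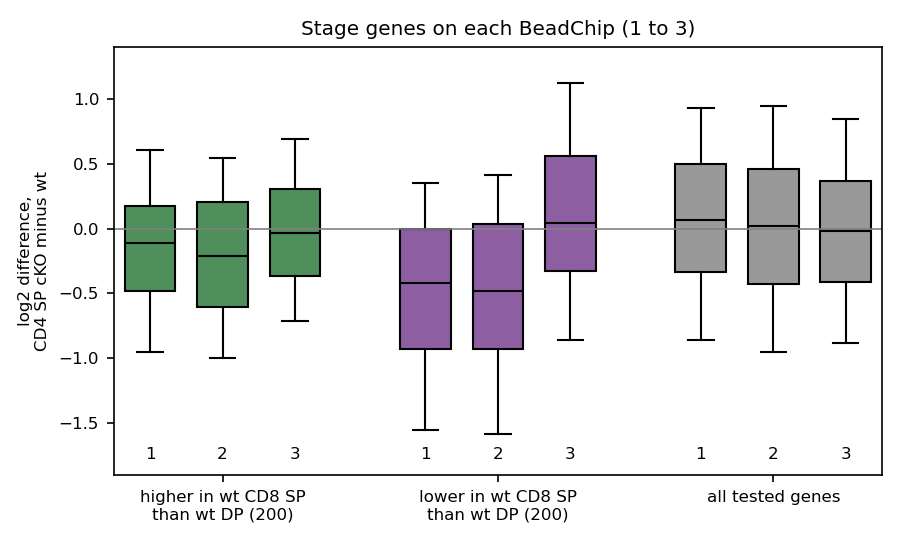
Distribution of the log2 difference of CD4 SP cKO minus wt on BeadChips 1 to 3 for genes higher (green) or lower (purple) in wt CD8 SP than in wt DP and for all tested genes (grey), with boxes for the middle 50% of genes, a line at the median and whiskers at the 10th and 90th percentile. The purple medians are -0.42 and -0.48 on BeadChips 1 and 2 and 0.05 on BeadChip 3.

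Genes of mitosis and chromosome segregation had lower means in cKO for 23 of 32 tested members, with a median of -0.15 and 0 passing the test. The BeadChip medians were -0.23, -0.20 and -0.01, and the median was -0.06 without wt array 1 and -0.30 without wt array 3. In DP 24 of the 32 were lower in cKO, with a median of -0.20, and in CD8 SP 19 were, with a median of -0.10. For 4 members, Plk1 among them, all cKO values lay below all wt values, beside 5.41% of all genes. Birc5, survivin of the chromosomal passenger complex, was the next by p, with 6.07, 6.32 and 6.17 in CD4 SP cKO and 7.26, 7.60 and 6.74 in CD4 SP wt. The groups lay apart by -1.01 ± 0.28 (limma adjusted p = 0.423). The other Birc5 probes gave -0.78 and -0.11. Hmmr, a spindle protein, was detected on 0 cKO arrays and 2 wt arrays, and Kif23, a kinesin of the dividing bridge, differed by -0.41. Mki67, the common proliferation marker, averaged 7.44 in cKO and 7.59 in wt, and Foxm1, a factor that drives mitotic genes, averaged 7.44 in cKO and 7.13 in wt. Genes of DNA replication had a median of -0.00 over 31 members, where Mcm6, a subunit of the replicative helicase, differed by -0.75 and Rfc3, a subunit of the clamp loader, by 0.90 (limma adjusted p = 0.476 and 0.484). The other Mcm6 probes lay between -0.84 and -0.21, and the other Rfc3 probe gave -0.39. Many mitotic promoters carry TTTGAA, the CHR element read by MuvB complexes near the start site. The promoter of Plk1 is shown because Plk1 led this group. It covers chr7:122159185-122159484 on the plus strand of GRCm38.p6, from 250 bases before to 50 bases after the RefSeq start, with the motif in capitals from 30 bases past the start.
Plk1 promoter: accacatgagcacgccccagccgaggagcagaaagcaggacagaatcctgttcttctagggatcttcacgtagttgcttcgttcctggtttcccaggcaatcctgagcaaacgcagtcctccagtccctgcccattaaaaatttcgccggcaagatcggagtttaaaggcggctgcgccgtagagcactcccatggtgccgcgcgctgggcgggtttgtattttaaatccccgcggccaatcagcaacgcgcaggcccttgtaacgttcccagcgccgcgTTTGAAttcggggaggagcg
Read on both strands, TTTGAA stood in 25 of the 28 promoters that RefSeq lists for 26 of the mitotic genes (89.3%), and in 17.9% of all 32851 promoters of the same length. Of the 23 genes with the motif, 17 had a lower mean in CD4 SP cKO (median -0.14), and of the 3 without it, 1 did (median 0.15).

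Interferon-stimulated genes had lower means in cKO for 26 of 35 tested members, with a median of -0.19 and 0 passing the test. The BeadChip medians were -0.07, -0.39 and -0.18, all below those of all genes, and the median was -0.12 without wt array 3 and -0.30 without cKO array 3. Usp18, the protease that removes ISG15 and restrains the interferon receptor, had the smallest p (limma adjusted p = 0.446). It measured 5.97, 5.40 and 5.71 in CD4 SP cKO and 7.64, 7.14 and 8.10 in CD4 SP wt, a difference of -1.94, and its second probe gave -0.84. Trim30a, a tripartite motif protein, differed by -0.70 with -0.55, -1.10 and -0.47 on the BeadChips. Gbp2, a guanylate-binding protein, differed by -0.98 and was higher in cKO on BeadChip 3, by 0.92. Mx1, an antiviral GTPase, lay the other way at 1.00 and was detected on all 3 cKO arrays and on 0 wt arrays. Bright members were close, with Psmb9 at 10.02 in cKO and 10.12 in wt and Isg15 at 8.74 in cKO and 8.86 in wt. Stat2, a subunit of the ISGF3 complex that binds the interferon-stimulated response element and is itself induced by interferon, measured 5.87, 4.98 and 4.82 in cKO and 5.99, 6.45 and 6.13 in wt. Its promoter is shown for that element, chr10:128270248-128270547 on the plus strand of GRCm38.p6 from RefSeq, with the match to its core (GAAA, any 2 bases, GAAA), which lies on the other strand, in capitals from base -222 relative to the start.
Stat2 promoter: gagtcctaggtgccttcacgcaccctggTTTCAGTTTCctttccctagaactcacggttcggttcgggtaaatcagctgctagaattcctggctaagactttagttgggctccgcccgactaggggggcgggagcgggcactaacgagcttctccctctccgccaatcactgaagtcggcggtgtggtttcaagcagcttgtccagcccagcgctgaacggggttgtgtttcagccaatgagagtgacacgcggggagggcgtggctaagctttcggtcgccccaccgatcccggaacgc
The core was found on either strand in 15 of 33 promoters listed for 26 of the genes (45.5%) and in 3.44% of all promoters. Of the 14 genes with the core, 11 had a lower mean in CD4 SP cKO (median -0.34), and of the 12 without it, 10 did (median -0.19).

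Genes of cholesterol synthesis and sterol regulation had lower means in cKO for 16 of 19 tested members, with a median of -0.45 and 0 passing the test. The BeadChip medians were -0.54, -0.42 and 0.05, and the median was -0.28 without wt array 1. All cKO values lay below all wt values for 2 members and above them for 0, beside 5.41% and 6.23% of all genes. Dhcr7, which makes the last step to cholesterol, measured 4.62, 4.45 and 4.85 in CD4 SP cKO and 6.10, 5.02 and 5.83 in CD4 SP wt. No cKO array and all wt arrays detected it, with -1.48, -0.57 and -0.98 on the BeadChips (limma adjusted p = 0.476). Hsd17b7, an enzyme of the same pathway, differed by -1.31 and Sqle, squalene epoxidase, by -0.64 with its other tested probe at 0.38. Srebf2, the factor that drives the pathway, differed by -0.45, and Insig2, which holds that factor back, by 0.50. These genes were dim, and the median of the group was -0.13 on log2 intensities without background correction and -0.22 with median intensity as a covariate.

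WNT target genes had no common direction. Of 16 tested, 8 were higher and 8 lower in cKO, with a median of 0.05 (-0.04 without wt array 2 and 0.19 without cKO array 3) and 0 passing the test. Axin2, a scaffold of the beta-catenin destruction complex and a direct target of WNT signals in many tissues, measured 6.98, 6.19 and 7.22 in CD4 SP cKO and 6.25, 5.16 and 6.05 in CD4 SP wt. The cKO array was above its partner on each BeadChip, by 0.73, 1.02 and 1.17, although the groups overlapped, and the difference was 0.98 (limma adjusted p = 0.574). Dkk1, a secreted WNT inhibitor, differed by 0.82. Nkd1, an intracellular one, was detected on 2 cKO arrays and 0 wt arrays, and Myc on 0 cKO arrays and 1 wt array, so that both were near background. Ccnd1 and Ccnd2, cyclins of G1, differed by -0.25 and -0.27. Of 30 genes for WNT secretion, receptors and signal transduction, 16 were higher and 14 lower in cKO, with a median of 0.01. The smallest p belonged to Btrc, the ubiquitin ligase subunit that marks beta-catenin for destruction (1.08), Fzd5, a Frizzled receptor (0.80), and Gsk3b, a kinase of the destruction complex (-0.62). Btrc and Fzd5 were higher in cKO on BeadChips 1 and 2 and lower on BeadChip 3, and their other probes gave -0.71, 0.05 and 0.10 for Btrc and -0.38 and 0.10 for Fzd5. Ctnnb1, beta-catenin, averaged 9.86 in cKO and 9.85 in wt, and Porcn, the enzyme that adds the lipid to WNT ligands, was dim and differed by 0.11. Notch target genes had a median of -0.01 over 7 members, with Dtx1 at 0.22 and Notch1 at 0.46.

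Cell death, metabolism and stress genes completed the gene groups. Of 23 apoptosis and p53 genes, 17 had a lower mean in cKO, with a median of -0.09 (-0.20 without cKO array 1) and 0 passing the test. The probe standing for Fas was detected on 0 cKO arrays and was 1.74-fold lower in cKO with undetected values floored. The p53 target Zmat3 differed by -1.05, and Bcl2l11, the death factor BIM of negative selection, averaged 10.20 in cKO and 10.15 in wt. The other tested probes of Fas gave -0.81, -0.25 and 0.14, and were detected on 0, 3 and 1 cKO arrays. Genes of ribosome biogenesis had a median of -0.08 over 23 members, with Rrp9, a nucleolar RNP protein, at -0.92. Cytosolic ribosomal protein genes had lower means in cKO for 40 of 56 members, but by little (median -0.04). Respiratory chain genes were lower for 34 of 72 (median 0.02), and glycolysis genes for 10 of 17 (median -0.03), where Gapdh and Aldoa were both at -0.03. Glucocorticoid response genes had a median of 0.17 over 15 members, with Tsc22d3 at 0.26, and immediate early and heat shock genes a median of -0.05 over 18. Adhesion genes had a median of -0.14 over 18 members, and Icam1, the ligand of LFA-1, differed by 0.79 with 0.50, 1.64 and 0.23 on the BeadChips. DP stage genes had a median of -0.07 over 13 members, and double-negative thymocyte genes a median of -0.20 over 7. The 4 sex-linked genes tested pool Xist, a gene of female cells, with the Y-linked Eif2s3y, Kdm5d and Uty, so their median of -0.28 cannot be read for sex. Uty was the 1 higher in cKO, with its other tested probe at 0.74, and the other 3 genes were lower. The 3 other Xist probes lay between -0.53 and -0.11. None of the 4 passed the test, and a difference in sex between the groups was not tested. Xist, Eif2s3y and Uty each had a probe detected on all 3 arrays of both genotypes.

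Markers of cells that could remain in a CD4 SP sort were listed as well. Epithelial and stromal genes had a median of 0.03 over 13 tested members of 22, and their summed linear level lay between 868 and 1177 in cKO and between 1013 and 1131 in wt. Dcn, decorin of fibroblasts, was the member with the smallest p, at 1.18. Macrophage and dendritic cell genes had a median of 0.22 over 8 members and summed levels between 793.5 and 917.1 in cKO and between 795.2 and 921.4 in wt. B cell genes had a median of -0.11 over 6 members and summed levels between 261 and 492 in cKO and between 404 and 467 in wt. The 4 erythroid genes tested summed to between 272 and 349.5 in cKO and between 248.5 and 271.2 in wt, without overlap, but the 2 globin genes differed in sign. Hbb-b1 averaged 7.23 in cKO and 6.72 in wt with overlapping groups and other probes between -0.45 and 0.59, and Hbb-b2 averaged 5.27 in cKO and 5.75 in wt. The 2 neutrophil genes tested differed by -0.25 and 0.16. The part of such cells in the differences above was not tested.

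**Figure D4:**
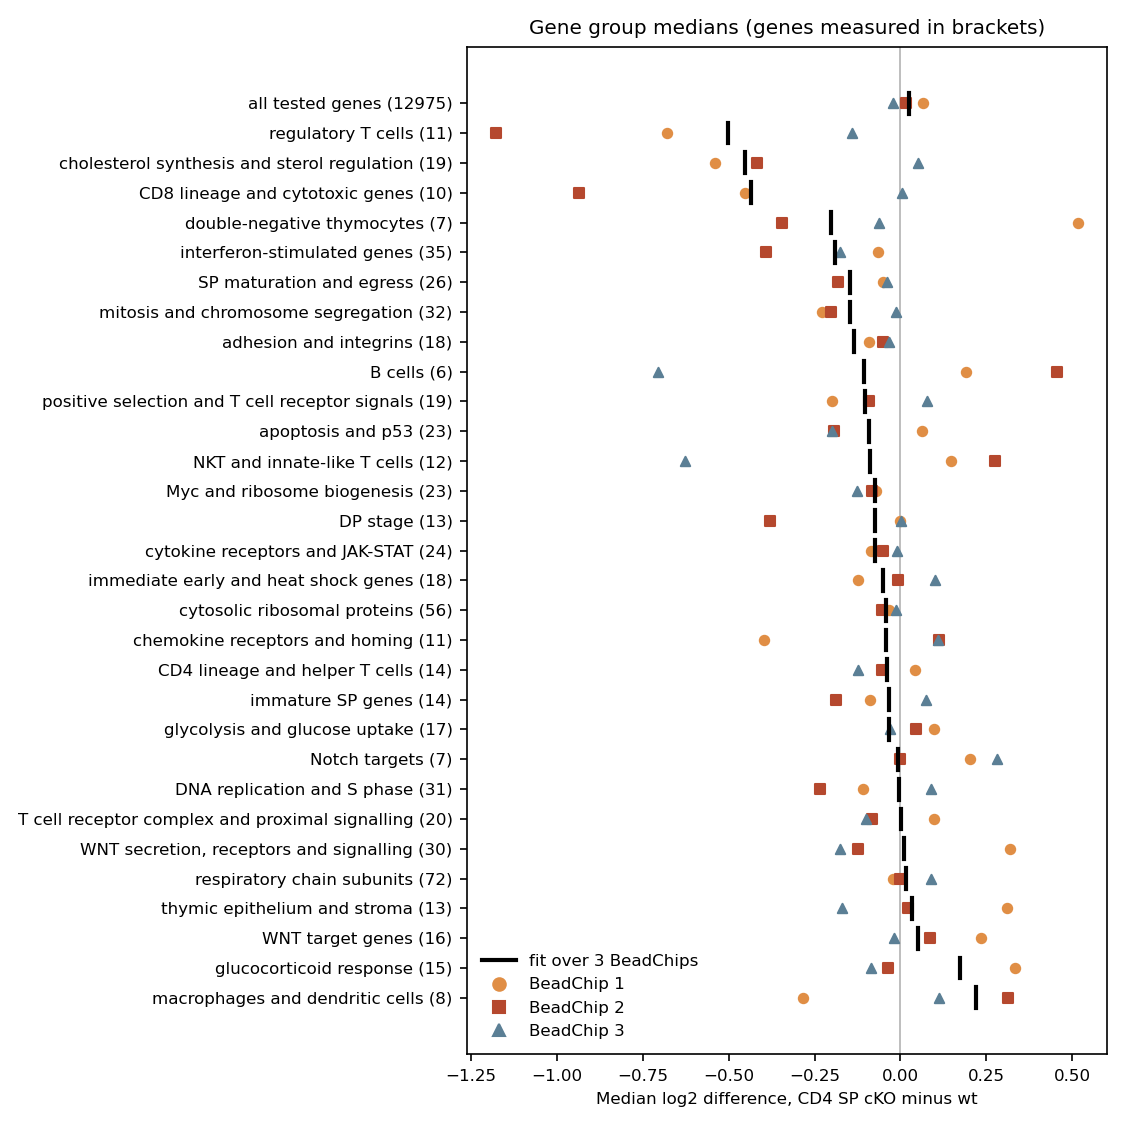
Median log2 difference of CD4 SP cKO minus wt for gene groups with at least 6 tested genes, with a black bar for the fit over the 3 BeadChips and a mark for each BeadChip. The regulatory T cell, sterol and CD8 lineage groups have the lowest plotted medians (-0.50, -0.45 and -0.44). With undetected genes at their floored folds, the medians are -0.43, -0.44 and -0.44. In each of these groups the BeadChip 3 median lies nearest 0 (-0.14, 0.05 and 0.00).

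The CD4 SP difference was also set against the mean of the DP and CD8 SP differences as an interaction, to ask whether a gene differed between genotypes more in CD4 SP than elsewhere. No probe passed (0 of 26676, 0.0%), and 1183 had an unadjusted p under 0.05 (4.43%). The genotype difference by itself had 0.00375% of probes past the threshold in DP and 0.0% in CD8 SP, with 9.46% and 5.21% at an unadjusted p under 0.05. The 3 genes with the smallest p were Itgae, Tcea2 and Nfasc, all at a limma adjusted interaction p of 0.903. Itgae had an interaction of -1.75. Its cKO minus wt difference was -1.72 in CD4 SP, beside 0.21 in DP, where no array detected it, and -0.16 in CD8 SP, where it was bright at 9.40 in cKO and 9.56 in wt. Tcea2, a transcription elongation factor, had an interaction of -1.69, with 5.72, 4.96 and 5.75 in CD4 SP cKO and 6.67, 6.61 and 6.73 in CD4 SP wt, and its second probe in CD4 SP gave -1.16. Nfasc, the adhesion molecule neurofascin, had an interaction of -1.58 that came more from the other populations, with 0.90 in DP and 1.36 in CD8 SP against -0.45 in CD4 SP. Plk1 averaged 6.83 in CD4 SP cKO and 8.01 in CD4 SP wt, 9.53 in DP cKO and 9.41 in DP wt, and 9.73 in CD8 SP cKO and 9.77 in CD8 SP wt. Unc80 averaged higher in cKO in each population, with 6.13 against 4.60 in wt CD4 SP, 5.48 against 4.86 in wt DP and 6.01 against 5.19 in wt CD8 SP. Axin2 averaged 6.80 in CD4 SP cKO and 5.82 in CD4 SP wt, 5.19 in DP cKO and 5.05 in DP wt, and 5.92 in CD8 SP cKO and 5.80 in CD8 SP wt.

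**Figure D5:**
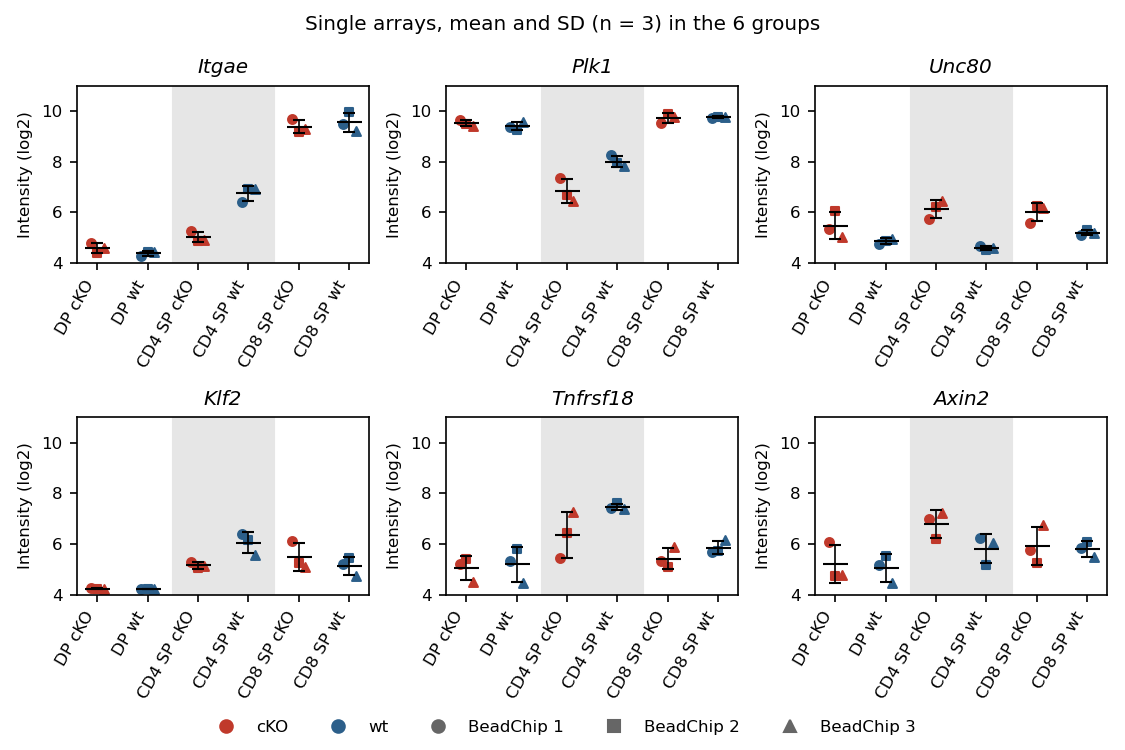
Normalized log2 intensity of 6 genes on every array of the 6 groups (cKO red, wt blue, a mark shape for each BeadChip), with black bars for the mean and SD of 3 arrays and grey shading on CD4 SP. Itgae is undetected in DP, bright in CD8 SP of both genotypes and apart in CD4 SP, at 5.03 in cKO and 6.75 in wt, and Plk1 is apart in CD4 SP, at 6.83 in cKO and 8.01 in wt.

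Detection gave a last view that needs no normalization. In CD4 SP, 207 of 46237 probes were detected on all 3 cKO arrays and on 0 wt arrays (0.448%), and 145 on all 3 wt arrays and on 0 cKO arrays (0.314%). The same counts were 200 and 157 in DP and 88 and 85 in CD8 SP. The 207 probes stood for 134 named genes, of which 68 had no probe detected on any wt array. The 145 probes stood for 127 named genes, of which 42 had no probe detected on any cKO array.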

How the data were processed

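Total RNA of sorted thymocytes (200 ng, per the labels) was hybridised to Illumina BeadChips in 6 groups of 3 arrays, all 18 of which entered the fit. The authors deposited bead intensities that were not normalized, with a detection p-value for each of 46237 probes, per the file headers. No header or label says how scanner values were summarised. From these values, limma 3.58.1 in R 4.3.3 computed a background correction with the detection p-values and an offset of 16, quantile normalization and log2 (neqc). Tests covered the 26676 probes that 3 or more arrays detected (detection p-value under 0.05).

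The fit (lmFit, eBayes, two-sided) held 1 mean per group and the label number, the BeadChip, as a fixed block, with Benjamini-Hochberg adjustment over all tested probes and a threshold of 0.05. The residuals of same-numbered cKO and wt arrays correlated at -0.0201, -0.000666 and -0.0947, so the pairing rests on the shared BeadChip. Where no array of a group detected a probe, the fold given is floored. It sets the brighter group's mean against the dim group's values raised to the lowest detected value of each array. That value is no detection limit, since some undetected probes lay above it, and the floored fold takes no account of the SE. Probe names came from the platform annotation, updated through RefSeq: 35784 probes had 1 gene symbol and 10453 had none. RefSeq promoters were of GRCm38.p6. The number of arrays limits the precision.

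Named genes were Wls, 12 per direction with the smallest p, no overlap between groups and 1 sign on every BeadChip, 3 from the interaction, up to 3 per gene group by p, sorting markers, and members that a statement turns on. The comparison, gene lists and tests were chosen with earlier results of these data known. Alternatives covered the offset, background, normalization, probe filter, variance model, block, intensity covariate, deposited processed values, probe averaging, the 6 CD4 SP arrays alone, and each CD4 SP array left out. The fit recovered known changes in simulated data at the rates given above.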

Additional observations from a re-analysis of the deposited data

How the results depend on the processing

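The count of probes past the threshold between CD4 SP cKO and CD4 SP wt was 0, and became 3 with limma's trend and robust options. Leaving out 1 array gave between 0 and 1 probes, the 1 being a probe of Rgs1 without wt replicate 3, and leaving out replicate 3 of both genotypes, chosen after seeing the data, gave 2. The interaction count was 0 and lay between 0 and 1 when 1 array was left out, the 1 again without wt replicate 3. Without the replicate block, 0 probes passed and 2039 had an unadjusted p under 0.05, beside 2257 with the block. That number was 3434 without replicate 3 of both genotypes (1712 higher and 1722 lower in cKO), 1505 with median intensity as a covariate (740 higher and 765 lower) and 1064 over gene means. In the authors' processed values 61.1% of 2370 such probes were higher in cKO, against 50.3% in the fit reported. Of 484 alternative values for 27 named genes, 481 kept their direction and their side of the threshold. Most of these genes were chosen for no overlap between groups and 1 sign on every BeadChip. Their direction was thus largely set by the choice, above all where 1 array was left out. At most 3 probes passed in any alternative, so the side of the threshold was nearly fixed as well. The count therefore cannot show whether the differences of these genes are robust. Plk1 passed once, with the trend and robust options, and Wls changed sign without wt replicate 2 (-0.098, in a range up to 0.33 when 1 array was left out) and as a mean over its probes (-0.079); the cause was not tested. Log2 differences were smaller where background was not subtracted, since dim probes are then compressed, and the levels of probes near background are uncertain. An interaction could not be fitted on the 6 CD4 SP arrays alone.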
